A study of Mus musculus with 6 samples.

Results

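The genes described here encode receptors with which microglia bind antibody-coated or modified particles. They are the Fc receptor genes Fcgr1, Fcgr2b, Fcgr3, Fcgr4 and Fcer1g and the scavenger receptor genes Msr1, Marco, Cd36, Cd68 and Scarb1. They were chosen by name, 10 of the 23462 mouse genes that the probes of the arrays could be matched to, and 14 probes measured them. RNA came from BV2 cells, an immortalized mouse microglial line, and every sample was treated with LPS, a bacterial membrane component that activates microglia. The study's cell culture methods, which do not name the arrays, give 500 ng/ml LPS for 6 h. On 3 arrays the cells were labelled as overexpressing PGC-1α, a coactivator of nuclear receptors that raises mitochondrial gene expression, and on 3 arrays as control cells without overexpression. The methods describe a lentivirus with the PGC-1α sequence in a vector with a ubiquitin (Ubi) promoter, or with a negative control, and selection of the overexpressing cells with puromycin; the labels do not say which vector the control arrays carried. Nothing states that the replicates were separate cultures, so the p-values measure the spread between these samples, which may be technical. In either group the arrays lay on 2 slides, replicates 1 and 2 on slide 1 and replicate 3 on slide 2.

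Fc receptors bind the constant part of antibodies. The Fcγ receptors encoded by Fcgr1, Fcgr3 and Fcgr4 activate the cell and need the common γ chain, encoded by Fcer1g, both to reach the membrane and to signal through its ITAM, a tyrosine motif that Src and Syk kinases act on, whereas the receptor encoded by Fcgr2b inhibits through the phosphatase SHIP. Scavenger receptors take up modified lipoproteins, bacteria and dying cells; in microglia they are known for the clearance of debris and amyloid.

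The values are log2 intensities relative to the 75th percentile of the same array, and the groups were compared with limma over all 17062 genes that could be tested. The PGC-1α arrays were dimmer than the control arrays, with a 75th percentile of 856 to 1268 against 1617 to 1893 intensity units, and under this scaling all genes together had a median log2 fold change of 0.23. After quantile normalization, which gives each array the same distribution of values, it was 0.03. Directions that differ between these scalings are therefore given under both. The targeted gene Ppargc1a gave no firm check of the labels. Its first probe measured 21.8, 19.6 and 9.06 intensity units in control cells and 22.3, 22.1 and 21.2 in PGC-1α cells, its second between 9.07 and 20.3 on all 6. Scaled to the 75th percentile, the first read -6.21, -6.37 and -7.71 in control cells and -5.70, -5.28 and -5.90 in PGC-1α cells. It was thus higher on every PGC-1α array, also after quantile normalization, while the second probe overlapped under both scalings. Both probes were too close to background to be tested. Of 10 microglia and macrophage markers 9 were well above background on all 6 arrays, while Cx3cr1, a defining microglial gene, was on none.

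The upstream sequences of the Fc receptor genes are shown first, because their calls differed. Fcgr1 and Fcgr4 were called lower under both scalings, Fcgr3 was called under neither, and the call of Fcer1g depended on the scaling. Each is the stretch of 150 bases before the transcription start listed by RefSeq on the mouse assembly GRCm38.p6, outside the listed transcript and printed 5′ to 3′ in the direction of the gene: chr3:96293970-96294119 on the minus strand for Fcgr1, chr1:171018776-171018925 on the plus strand for Fcgr4, and chr1:171059404-171059553 (the first of 2 listed starts) and chr1:171234350-171234499, both on the minus strand, for Fcgr3 and Fcer1g. Capitals mark matches to the core of PU.1, the macrophage lineage factor (GAGGAA or TTCCTC), to the STAT site (TTCNNNGAA) and to an interferon response core (GAAANNGAA or TTCNNTTTC).
Fcgr1: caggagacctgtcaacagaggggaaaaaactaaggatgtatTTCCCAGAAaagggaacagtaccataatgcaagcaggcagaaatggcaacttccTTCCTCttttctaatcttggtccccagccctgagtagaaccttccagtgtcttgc
Fcgr4: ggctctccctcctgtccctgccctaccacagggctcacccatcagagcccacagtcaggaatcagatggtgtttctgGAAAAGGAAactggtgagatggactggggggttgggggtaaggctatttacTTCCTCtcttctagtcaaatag
Fcgr3: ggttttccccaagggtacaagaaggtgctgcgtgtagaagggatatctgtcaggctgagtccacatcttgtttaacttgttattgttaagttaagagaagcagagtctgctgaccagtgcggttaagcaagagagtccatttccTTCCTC
Fcer1g: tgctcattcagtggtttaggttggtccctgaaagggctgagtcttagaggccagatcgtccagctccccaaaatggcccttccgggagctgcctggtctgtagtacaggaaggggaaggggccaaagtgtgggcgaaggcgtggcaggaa
In Fcgr1 the STAT site began 109 bases and the PU.1 core 55 bases before the start. In Fcgr4 the interferon response core began 73 bases and the PU.1 core 22 bases before it, and in Fcgr3 the PU.1 core lay 6 bases before it. In the longer windows from 250 bases before to 50 after the start, which were listed for 8 of the 10 genes, PU.1 cores on either strand were found in Fcgr1, Fcgr3, Fcgr4, Cd68 and Marco (5 of 8), against 28.3% of 32851 such windows of all genes. The STAT site was found in Fcgr1 alone of the 8 (8.3% of all windows), the interferon response core in Fcgr4 alone (8.56%), and the ERR half-site AAGGTCA, the motif of nuclear receptors that work with PGC-1α, in none of them (4.72%). The 8 were counted as genes, and a gene can have more than 1 window, as Fcgr3 has with its 2 starts. The percentages are of single windows, so the counts and the percentages are not directly comparable. All of these are matches of letters, and no binding was measured here.

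Of the activating Fcγ receptors, Fcgr1 and Fcgr4 fell on the PGC-1α arrays under both scalings, and Fcgr3 missed the threshold under both, at 0.05 under the 75th percentile and at -0.32 after quantile normalization. Fcgr1 (NM_010186) encodes the high-affinity receptor for IgG. It read 797, 734 and 805 intensity units in control cells and 292, 267 and 305 in PGC-1α cells. Every PGC-1α array thus lay below every control array before scaling, where the PGC-1α arrays were dimmer as a whole. After scaling the groups still did not overlap, with the lowest control array at -1.23 and the highest PGC-1α array at -1.68. Relative to the 75th percentile it was -1.13 ± 0.11 (SD, n = 3) in control cells and -1.91 ± 0.20 (SD, n = 3) in PGC-1α cells. The log2 fold change of Fcgr1 was -0.77 (standard error, SE, of 0.14, limma adjusted p = 0.0033), which left 58.5% of the control level. After quantile normalization it was -0.76 (limma adjusted p = 0.0073). Set against the median of all genes Fcgr1 lay 1.00 lower, and 11.1% of the tested genes had a lower fold change. In bulk RNA, fewer cells that express a gene and less RNA per cell cannot be told apart, and this holds for each gene below.

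Fcgr4 (NM_144559) encodes the mouse receptor for IgG2a and IgG2b. It gave 3439, 3270 and 3356 intensity units in control cells and 1414, 1346 and 1522 in PGC-1α cells, again without overlap. Scaled to the array it went from 0.97 ± 0.13 (SD, n = 3) to 0.40 ± 0.22 (SD, n = 3), which is a change of -0.57 (SE 0.15, limma adjusted p = 0.013) and 67.3% of the control level. Quantile normalization gave -0.62 (limma adjusted p = 0.018). Without PGC-1α replicate 1 the change of Fcgr4 was -0.52 and missed the threshold (limma adjusted p = 0.055). The fall of both genes was present on each slide, at -0.75 on slide 1 and -0.82 on slide 2 for Fcgr1 and at -0.58 and -0.56 for Fcgr4.

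Fcgr3 (NM_010188) encodes a low-affinity activating receptor. It gave 11691, 11373 and 13748 intensity units in control cells and 8022, 7000 and 9130 in PGC-1α cells, below every control array before scaling. Scaled to the 75th percentile it read 2.85, 2.81 and 2.86 in control cells and 2.79, 3.03 and 2.85 in PGC-1α cells, so that the groups overlapped. The log2 fold change was 0.05 (SE 0.12, limma adjusted p = 0.74) under this scaling but -0.32 (adjusted p = 0.052) after quantile normalization, where the groups did not overlap. With the slide as a block in addition, quantile normalization took it past the threshold (adjusted p = 0.039), and so did the authors' own normalized values (-0.34, adjusted p = 0.022). By slide it was 0.08 and -0.01 under the 75th percentile and -0.36 and -0.25 after quantile normalization. The direction of Fcgr3 therefore depended on the scaling, which that of Fcgr1 and Fcgr4 did not.

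Fcgr2b, the inhibitory receptor gene, was measured by a probe pair. The brighter probe (NM_001077189) gave 5448, 6131 and 6533 intensity units in control cells and 4463, 3371 and 4733 in PGC-1α cells, also below every control array before scaling. Its scaled values were 1.75, 1.91 and 1.79 against 1.95, 1.98 and 1.90, overlapping at 1 array of each group. It changed by 0.12 (SE 0.12, limma adjusted p = 0.38), or by -0.07 (adjusted p = 0.68) after quantile normalization, and passed the threshold in 0 of the 22 alternatives run for it. The second probe (NM_010187) changed by -0.12 (limma adjusted p = 0.45, over probes) and by -0.19 (adjusted p = 0.25) after quantile normalization. Within an array, the log2 ratio of the first to the second probe was 0.90 ± 0.15 (SD, n = 3) in control and 1.14 ± 0.05 (SD, n = 3) in PGC-1α cells without overlap (exact permutation test, two-sided p = 0.1, the smallest that 3 against 3 arrays allow). The probes carry accessions of different transcripts. Their sequences were not used here, so it is not known which exons they read or whether the closely related Fcgr3 transcript hybridizes to them.

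Fcer1g (NM_010185), the common γ chain gene, was among the brightest genes of the arrays. It measured 21197, 23113 and 20811 intensity units in control cells and 22026, 17707 and 20591 in PGC-1α cells, with the groups overlapping before scaling. Relative to the 75th percentile it went from 3.67 ± 0.19 (SD, n = 3) to 4.21 ± 0.18 (SD, n = 3), which is a change of 0.55 (SE 0.15, limma adjusted p = 0.016), but after quantile normalization it changed by 0.02 (adjusted p = 0.93) and in the authors' normalized values by -0.01 (adjusted p = 0.96). Under the 75th percentile it also missed the threshold without control replicate 3 (0.44, limma adjusted p = 0.061) or PGC-1α replicate 1 (0.53, adjusted p = 0.056). The change was present on both slides under the 75th percentile (0.54 on slide 1 and 0.56 on slide 2) and differed in sign between them after quantile normalization (-0.09 and 0.25). The tested genes were also put into 10 classes of brightness. In the brightest class of 1707 genes, which holds Fcer1g, Fcgr3, Cd68 and Scarb1, the median log2 fold change was 0.52 under the 75th percentile and 0.01 after quantile normalization, and Fcer1g lay close to that median under either scaling. The classes of Fcgr1 and Fcgr4 had medians of -0.13 and -0.03 under the 75th percentile, so that Fcgr1 lay 0.64 and Fcgr4 0.54 below the median of genes of like brightness. Fcgr3 lay 0.46 below that of its class. The part of brightness in these values was not tested further.

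**Figure D1:**
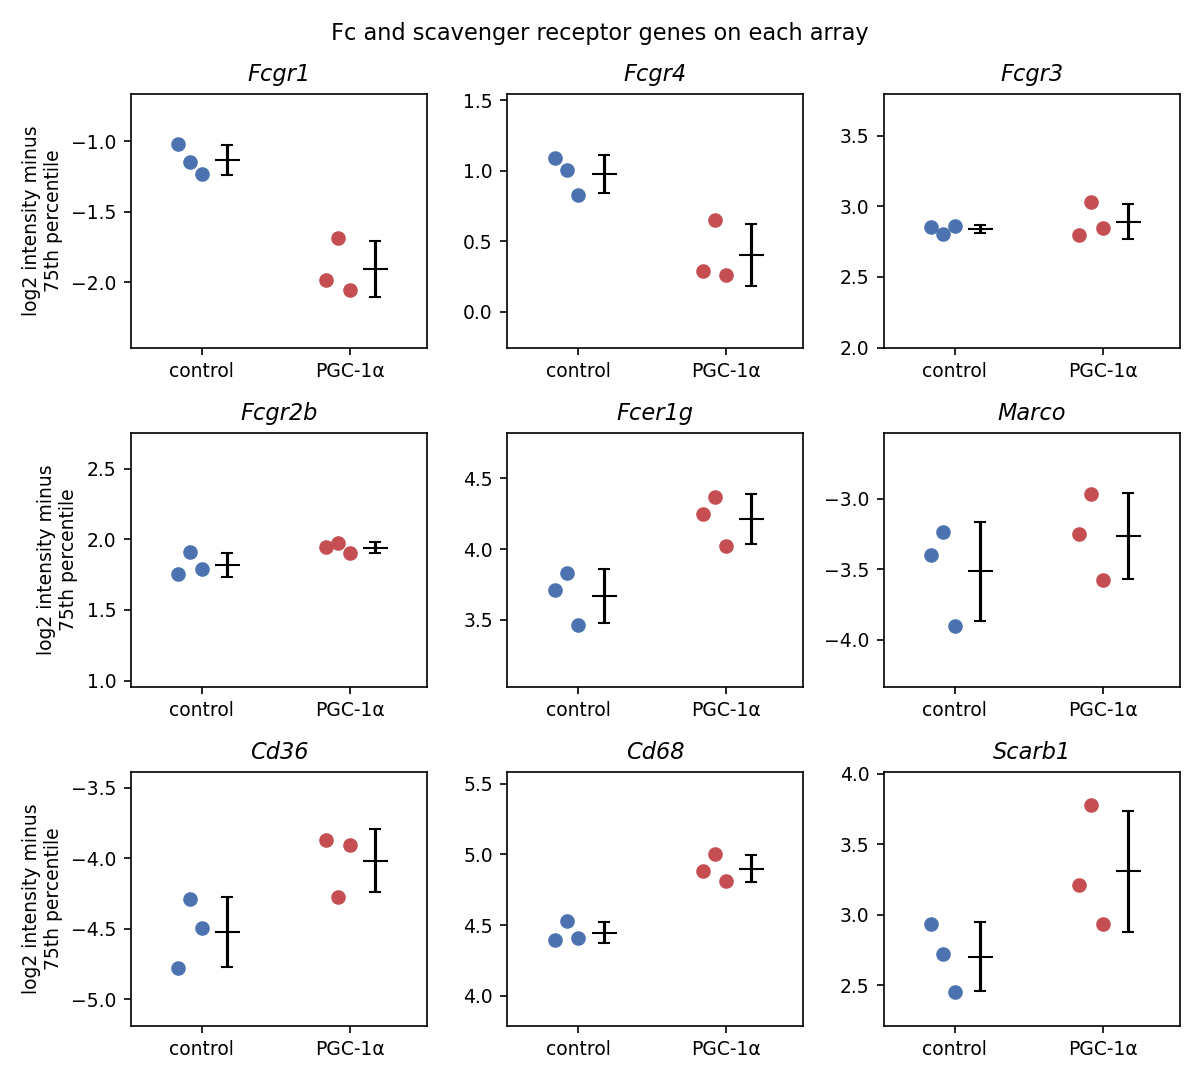
Log2 intensity minus the 75th percentile of the array for the 9 receptor genes tested, 1 point per array, with the mean and SD (n = 3) beside each group; every panel has its own range on the vertical axis. Fcgr1 and Fcgr4 are lower on every PGC-1α array, while Fcer1g, Cd36 and Cd68 are higher on every PGC-1α array under this scaling, where Cd68 and Fcer1g had changes of -0.12 and 0.02 after quantile normalization, and Cd36 overlapped.

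Because each activating Fcγ receptor depends on the γ chain, the receptor genes were also expressed relative to Fcer1g on the same array, which does not depend on any scaling factor between arrays. Fcgr1 over Fcer1g was -4.80 ± 0.15 (SD, n = 3) in control and -6.12 ± 0.10 (SD, n = 3) in PGC-1α cells on the log2 scale, a difference of -1.32 (SE 0.16, limma adjusted p = 1.5e-04), or 40.0% of the control ratio. Fcgr4 over Fcer1g differed by -1.12 (SE 0.16, limma adjusted p = 3.8e-04), or 46.0% of the control ratio. Fcgr3 over Fcer1g differed by -0.50 (SE 0.17, limma adjusted p = 0.042), and Fcgr2b over Fcer1g by -0.42 (SE 0.16, adjusted p = 0.061).
All 4 Fcγ receptor genes were thus lower relative to the γ chain gene on every PGC-1α array than on any control array, Fcgr2b without passing the limma threshold; the same held for 44% of all genes with a value on each array. Each of these ratios taken alone had an exact permutation p of 0.1, two-sided, which was 0.15 after adjustment over the 15 within-array ratios computed. Relative to Fcer1g the median of all genes was -0.32, and 37.2% of them were called lower and 4.94% higher, so that a lower ratio to Fcer1g was common. The brightness classes of Fcgr1 and Fcer1g themselves had medians of -0.13 and 0.52 under the 75th percentile. Of the 8 other receptor genes tested, 3 were called lower and 0 higher, or 4 and 0 at an unadjusted p under 0.05 in limma. The Fcγ receptor genes also differed among themselves. Fcgr1 over Fcgr3 differed by -0.82 and Fcgr4 over Fcgr3 by -0.62. Fcgr1 over Fcgr2b differed by -0.90, Fcgr4 over Fcgr2b by -0.70 and Fcgr1 over Fcgr4 by only -0.20. In each pair the groups did not overlap (exact permutation test, two-sided p = 0.1, adjusted p = 0.15). The share of all gene pairs without overlap was not computed. Of single genes 65.5% did not overlap under the 75th percentile. There the brightness classes of Fcgr1, Fcgr4, Fcgr2b and Fcgr3 had medians of -0.13, -0.03, 0.23 and 0.52. Set against its own class median, Fcgr1 was at -0.64, Fcgr4 at -0.54, Fcgr3 at -0.46 and Fcgr2b at -0.11. The part of brightness in these ratios was not tested. A ratio shows that the genes of a pair changed unequally, and not which of them moved.

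**Figure D2:**
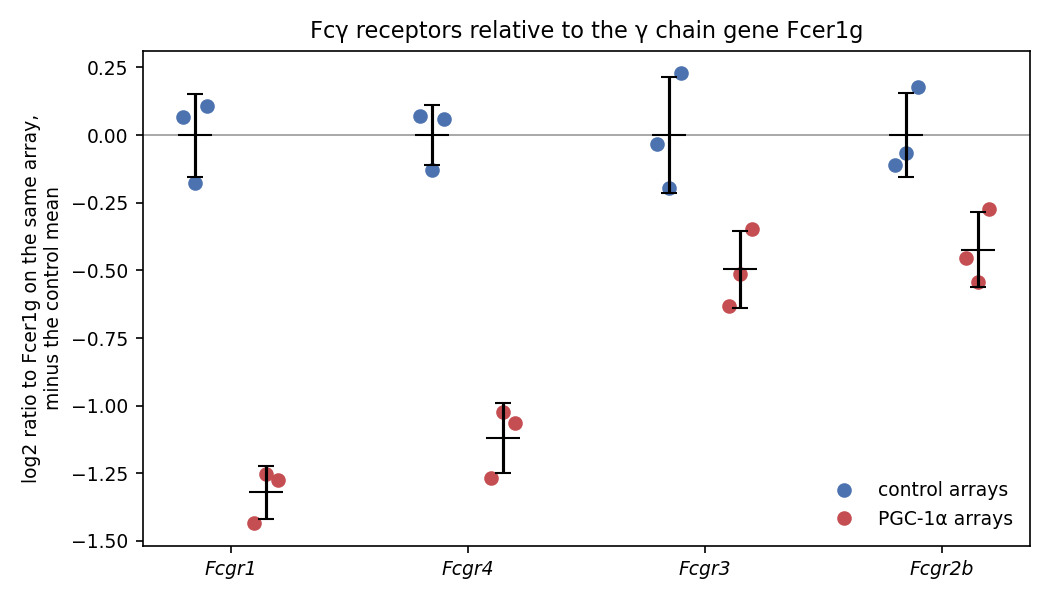
Log2 ratio of each Fcγ receptor gene to Fcer1g on the same array, minus the mean of the control arrays; points are arrays, and lines are the mean and SD (n = 3). The PGC-1α arrays lie below all control arrays for each of the 4 genes, as they do for 44% of all genes, with mean differences of -1.32 (Fcgr1), -1.12 (Fcgr4), -0.50 (Fcgr3) and -0.42 (Fcgr2b) where the median of all genes was -0.32.

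The scavenger receptor genes called higher under the 75th percentile, Cd36 and Cd68, did not pass after quantile normalization. Cd68 (NM_001291058) encodes a glycoprotein of late endosomes and lysosomes that serves as a marker of phagocytes. Its tested probe gave 33973, 37607 and 40237 intensity units in control cells and 34096, 27486 and 35670 in PGC-1α cells, which overlap. Its scaled values were 4.39, 4.53 and 4.41 against 4.88, 5.01 and 4.81, without overlap. The log2 fold change of Cd68 was 0.46 (SE 0.12, limma adjusted p = 0.014) under the 75th percentile and turned to -0.12 (adjusted p = 0.48) after quantile normalization. On slides 1 and 2 it was 0.48 and 0.40 under the 75th percentile and -0.17 and -0.03 after quantile normalization. A second Cd68 probe was not tested, since it was marked as an outlier spot on 1 control array and 2 PGC-1α arrays.

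Cd36 (NM_007643), which encodes a receptor for oxidized lipoproteins and fatty acids, was dim. It gave 58.9, 83.3 and 84.0 intensity units in control cells and 79.1, 44.2 and 84.6 in PGC-1α cells, well above background on all 6. Scaled, it read -4.78, -4.29 and -4.49 against -3.87, -4.27 and -3.91, and the groups only just did not overlap. The log2 fold change of Cd36 was 0.50 (SE 0.17, limma adjusted p = 0.037) under the 75th percentile and 0.33 (adjusted p = 0.15) after quantile normalization. By slide it was 0.46 and 0.59 under the 75th percentile. The call was lost without control replicate 1 (0.37, adjusted p = 0.12) or 3 (0.52, adjusted p = 0.083) and without PGC-1α replicate 1 (0.43, adjusted p = 0.12) or 3 (0.45, adjusted p = 0.093), all from limma. The class of 1706 genes of similar brightness that holds Cd36 had a median of 0.53 under the 75th percentile and 0.34 after quantile normalization, about the values of Cd36 itself.

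Marco (NM_010766) encodes a class A scavenger receptor that binds bacteria and particles. It gave 153, 173 and 126 intensity units in control cells and 122, 110 and 106 in PGC-1α cells. After scaling the groups overlapped, and the log2 fold change was 0.25 (SE 0.22, limma adjusted p = 0.35), close to the median of all genes; after quantile normalization it was 0.14 (adjusted p = 0.64). By slide it was 0.21 and 0.33 under the 75th percentile. Marco passed the threshold in 0 of 22 alternatives. Msr1 (NM_031195), the founding class A scavenger receptor gene of macrophages, was not well above background on any array with either of its probes, whose intensities lay between 2.48 and 6.18, and no fold change is given for it. At this signal a difference in Msr1 was not detectable.

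Scarb1 encodes a class B receptor that exchanges cholesterol with high-density lipoprotein. Its brighter probe (NM_001205083) gave 12374, 10749 and 10354 intensity units in control cells and 10717, 11734 and 9683 in PGC-1α cells. Scaled values were 2.94, 2.72 and 2.45 against 3.21, 3.78 and 2.93, with PGC-1α replicate 3 just below the highest control array. The difference was 0.66 on slide 1 and 0.48 on slide 2. The log2 fold change was 0.60 (SE 0.23, limma adjusted p = 0.051), which passed with the slide as a block (adjusted p = 0.011) and without PGC-1α replicate 3 (0.79, adjusted p = 0.019). It was 0.37 (adjusted p = 0.12) without PGC-1α replicate 2, 0.48 (adjusted p = 0.16) without control replicate 3, and 0.20 (adjusted p = 0.48) after quantile normalization. The second probe (NM_016741), from which 1 PGC-1α array was left out as an outlier spot, changed by 0.08 (SE 0.17, limma adjusted p = 0.72, over probes) and by -0.14 after quantile normalization. The left-out array, PGC-1α replicate 2, was the highest for the first probe. Within an array, the log2 ratio of the first to the second probe differed by 0.29 between the groups, with overlap (exact permutation test, two-sided p = 0.6, 3 against 2 arrays).

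Counted together, 9 of the 10 genes were tested, and 5 passed an adjusted p of 0.05 in limma under the 75th percentile. Fcer1g, Cd36 and Cd68 were the 3 higher and Fcgr1 and Fcgr4 the 2 lower genes, where 36.9% of all tested genes were called higher and 19.6% lower. After quantile normalization 0 were higher, also at an unadjusted p under 0.05, and the 2 lower genes were again Fcgr1 and Fcgr4 (3 with Fcgr3 at an unadjusted p under 0.05), where 21.7% of all genes were called higher and 20.9% lower. Without control replicate 3 or PGC-1α replicate 1 the count of 5 dropped to 3 and 2. Of the 9 genes 5 had groups that did not overlap, against 65.5% of all genes measured on each of the arrays, and 5 of the 11 tested probes passed, against 52.7% of all tested probes. The median log2 fold change of the 9 genes was 0.25 under the 75th percentile, where that of all genes was 0.23, and -0.07 after quantile normalization, where that of all genes was 0.03. Under the 75th percentile these counts were near those of all genes. Of the 9 genes, Fcgr1 and Fcgr4 were the only ones called under both scalings.

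**Figure D3:**
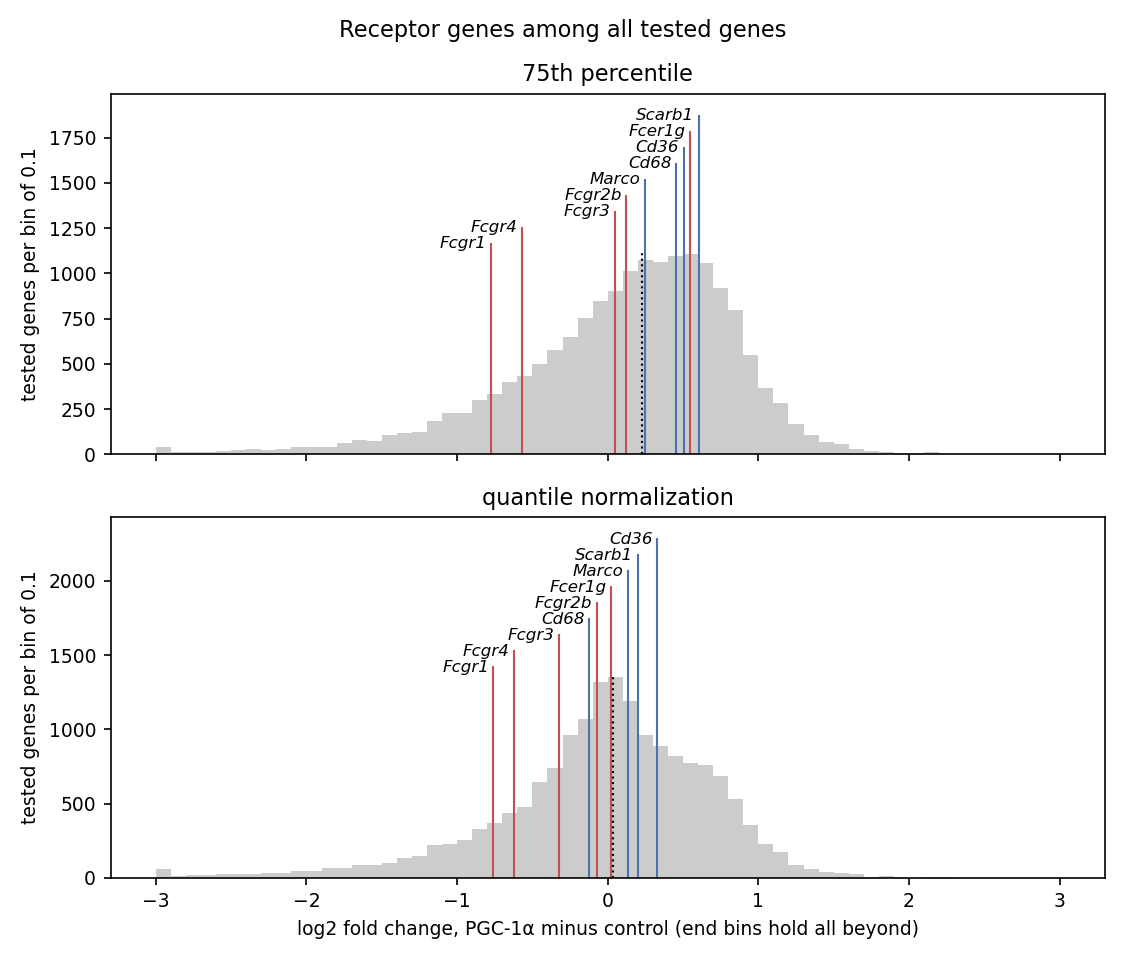
Distribution of the log2 fold change (PGC-1α minus control) over the 17062 tested genes in bins of 0.1, under the 75th percentile (top) and quantile normalization (bottom). Vertical lines mark the Fc receptor genes in red and the scavenger receptor genes in blue, their heights only spread the names, and the dotted line is the median of all genes at 0.23 (top) and 0.03 (bottom). Fcgr1 and Fcgr4 keep their place on the left, whereas the bright genes Fcer1g, Cd68, Scarb1 and Fcgr3 move left after quantile normalization, Cd68 and Fcgr3 across 0.

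**Figure D4:**
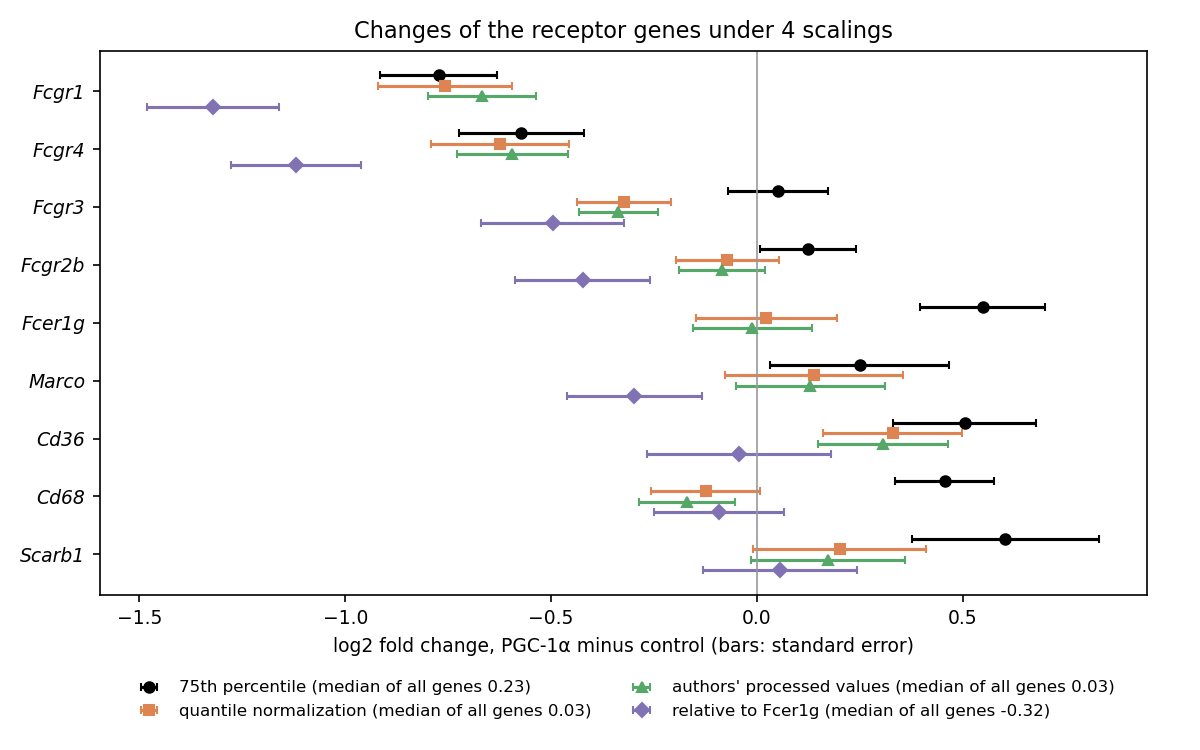
Log2 fold change (PGC-1α minus control) with its SE (n = 3 arrays a group) for the 9 tested genes under 4 scalings; Fcer1g has no value relative to itself. Fcgr1 and Fcgr4 are below 0 under all 4, and Fcgr3, Fcgr2b, Fcer1g, Marco, Cd36 and Cd68 change sign between scalings.

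The other genes of these families and their signalling were described by lists. For each list the counts stand against 36.9% of all genes called higher and 19.6% lower, with a median of 0.23, under the 75th percentile, and against 21.7% and 20.9%, with a median of 0.03, after quantile normalization. Of 12 other Fc receptor genes, 7 were tested and 4 were higher and 0 lower under the 75th percentile (median 0.48), the same counts as at an unadjusted p under 0.05 in limma. After quantile normalization 2 were higher and 1 lower (median 0.24), or 3 and 1 at an unadjusted p under 0.05. The largest rise was that of Fcrlb, an intracellular Fc receptor-like gene, at 0.91 (limma adjusted p = 0.0060) and 0.93 after quantile normalization. Fcgrt, the neonatal Fc receptor gene that recycles IgG, rose by 0.45 (limma adjusted p = 0.019) and missed the threshold after quantile normalization at 0.38 (adjusted p = 0.056). Of 18 other scavenger receptor genes, 14 were tested, with 4 higher and 3 lower under the 75th percentile (median 0.19), the same as at an unadjusted p under 0.05. After quantile normalization 3 were higher and 3 lower (median -0.00), or 5 and 4 at an unadjusted p under 0.05. Megf10, an engulfment receptor gene, had the largest rise at 1.39 (limma adjusted p = 6.2e-04) and Scarf2, a class F receptor gene, the largest fall at -1.20 (adjusted p = 2.8e-04), and both passed after quantile normalization (1.15 and -1.25). The macrophage scavenger receptor genes Cd163 and Mrc1 were not well above background on any array.

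Of 32 genes that signal after Fc receptors, 31 were tested, and 5 were higher and 9 lower under the 75th percentile (median -0.01), or 5 and 11 at an unadjusted p under 0.05 in limma. After quantile normalization 2 were higher and 9 lower (median -0.23), or 2 and 12 at an unadjusted p under 0.05. The largest rise under the 75th percentile was that of Cdc42, a GTPase of actin assembly, at 0.66 (limma adjusted p = 0.0066), but after quantile normalization it was 0.12 (adjusted p = 0.53). Of the kinases and the phosphatase that act first on the receptors' motifs, named here for their roles after their values were seen, Syk rose by 0.39 (limma adjusted p = 0.035; 0.38 and 0.038 after quantile normalization), Lyn changed by -0.16 (adjusted p = 0.28), and Inpp5d, which encodes SHIP, was called lower under the 75th percentile (-0.46, adjusted p = 0.040) and not after quantile normalization (-0.45, adjusted p = 0.070).
Of 14 transcription factor genes known to act on macrophage receptor genes, 13 were tested, with 3 higher and 7 lower under the 75th percentile (median -0.38), the same as at an unadjusted p under 0.05 in limma. After quantile normalization 3 were higher and 5 lower (median -0.35), or 3 and 7 at an unadjusted p under 0.05. Nr1h3, which encodes the sterol receptor LXRα, had the largest rise at 1.63 (limma adjusted p = 7.5e-05), and Nfe2l2, which encodes the antioxidant factor NRF2, the largest fall at -2.07 (adjusted p = 0.0032). Spi1, which encodes PU.1, changed by 0.17 (limma adjusted p = 0.50) and by 0.05 after quantile normalization, and is given because its motif was searched above.

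Markers of other cell types moved too, in part depending on the scaling. The summed intensity of 4 fibroblast markers, relative to the 75th percentile, was 15.4 to 16.5 on the control arrays and 26.5 to 32.0 on the PGC-1α arrays, with 3 of 4 higher and 1 lower, or 2 and 1 after quantile normalization, and that of 5 neuronal markers 24.3 to 29.8 against 36.6 to 49.9. Of the 4 neuronal markers tested, 2 were higher and 1 lower, or 1 and 1 after quantile normalization, and of 3 tested astrocyte markers 2 were higher and 0 lower under both scalings (limma, with the same counts at an unadjusted p under 0.05). The 10 microglia and macrophage markers went from 67.1 to 68.5 on the control arrays to 95.3 to 116 on the PGC-1α arrays, with 4 of the 9 tested higher and 0 lower in limma; after quantile normalization 0 were higher and 1 lower, and an unadjusted p under 0.05 gave the same counts. The markers of astrocytes, oligodendrocytes, T cells, B cells and endothelial cells each summed to at most 1.30 on any array. The sums are given under the 75th percentile only. There Col1a1 (fibroblasts), Snap25 (neurons) and Tyrobp (microglia) changed by 0.77, 0.71 and 0.74. After quantile normalization these changes were 0.25, 0.11 and 0.16 and missed the threshold in limma. Col1a2, Dcn and Rbfox3 stayed higher (1.04, 0.74 and 0.84), and Pdgfra and Tubb3 lower (-1.79 and -0.69). The part of these markers in the receptor values was not tested.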

How the data were processed

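RNA of LPS-treated BV2 cells was measured on 6 Agilent arrays, 3 per group; groups, replicate numbers and slides come from the labels. The authors' scanner software had measured the green channel of each spot and subtracted its background. The deposited intensity values carry no normalization across arrays. A table of log2 values that the authors normalized in GeneSpring, by a procedure not given in the sources used here, served as an alternative. Cy3 is the dye in the labels and Cy5 in the methods.

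The 75th percentile of the 59305 spots other than controls was subtracted from log2 intensity. Outlier spots, 149 to 1590 of them on an array, were dropped and spots of a probe averaged. Accessions matched 33767 of 56605 probes to RefSeq genes of GRCm38.p6. Testing required at least 2 values in either group and, in 1 group or both, a signal well above background on all 3 arrays. A gene was represented by its brightest probe that met this. The comparison used limma 3.58.1 in R 4.3.3 (lmFit, eBayes, two-sided), and p-values were adjusted over 17062 genes by Benjamini-Hochberg with a threshold of 0.05. Single ratios were compared with exact permutation tests in scipy 1.17.1. The steps were tested on simulated data. Precision is limited by the number of arrays.

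The receptor genes, the lists and the named genes were chosen with earlier results of these data known; in each list the genes with the largest rise and fall past the threshold are named, except where a gene is not reported here, and any other gene named was picked for its role after its values were seen. Alternatives were quantile normalization, the median as scale, normexp with an offset of 50 on median signals, other filters, the mean of probes, the slide or replicate number as a block, slide 1 alone, a variance trend, array weights, the authors' log2 values, outlier spots kept, a fold threshold and leaving out each array. Values relative to Fcer1g, and quantile normalization with the slide as a block, were added after seeing the data.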

Additional observations from a re-analysis of the deposited data

How the results depend on the processing

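Across 22 alternatives, which leave out the fold threshold, Fcgr1 stayed past the threshold in all and Fcgr4 in 21. With a change of 1 or more required as well, neither passed. Fcgr1 was lower in all 22, at -0.89 to -0.67, and at -1.32 as a ratio to Fcer1g, which is a different quantity. The other receptor genes depended on the scaling, and causes of the differences below were not tested.

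The 5 receptor genes past the threshold became 2 with quantile normalization, 3 with normexp and quantile normalization, 3 with the authors' processed values, 3 with quantile normalization and the slide as a block, 3 relative to Fcer1g, 0 when a change of 1 or more on the log2 scale was required as well, and 2 to 5 with 1 array left out. The 5 probes became 2, 3, 3 and 3 under the first 4 of these, 3 with the median as scale, and 2 to 5 with 1 array left out. Of all genes, 9633 passed, 6386 with normexp and quantile normalization, 2430 with the change of 1 required, and 7409 to 9905 with 1 array left out.

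Signs turned as follows, in the order quantile normalization, normexp and quantile normalization, the authors' values, quantile normalization with the slide block, and relative to Fcer1g. Fcgr2b gave -0.072, -0.089, -0.085, -0.072 and -0.42, Fcgr3 -0.32, -0.36, -0.34, -0.32 and -0.50, and Cd68 -0.12, -0.13, -0.17, -0.12 and -0.092. Fcgr3 also gave -0.059 with the median, -0.020 with normexp and the 75th percentile, -0.0049 with array weights and, with 1 array left out, -0.019 (without PGC-1α replicate 2) to 0.10. Fcer1g turned to -0.011 in the authors' values, and relative to Fcer1g Cd36 gave -0.044 and Marco -0.30.

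Replicate numbers did not pair the samples: deviations of same-numbered arrays correlated at -0.16, 0.07 and 0.60 across 16296 genes. With the replicate number as a block 10561 genes and 6 receptor genes passed, Scarb1 being added (0.60, adjusted p = 0.015 from limma). Msr1 and Ppargc1a were too close to background for a fold change.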
